A study of Mus musculus with 24 samples.

Results

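The glutathione S-transferase (GST), UDP-glucuronosyltransferase (UGT) and sulfotransferase (SULT) genes were described in liver and inguinal white adipose tissue (iWAT) of mice with and without a knockout of Mrs2, the channel that carries magnesium into the mitochondrial matrix. Members were the protein-coding genes of the deposited table whose symbols begin with Gst, a class letter and a digit, with Ugt1, Ugt2 or Ugt3, or with Sult and a digit. This gave 64 of 54532 genes, of which 22046 were protein-coding: 22 GST, 21 UGT and 21 SULT genes. A further 7 genes with such symbols were not protein-coding and were left out. The knockout (KO) and wild-type (WT) mice ate Western diet, an obesogenic diet, or chow for 52 weeks from the age of 13 weeks. The 8 groups, with 3 mice each and 24 libraries in all, were KO Western diet liver, WT Western diet liver, KO chow liver, WT chow liver, and the same 4 combinations in iWAT. Whole organs were crushed while frozen, and RNA came from 50 mg of liver or 100 mg of iWAT from which the lymph nodes had been taken. The labels used here state neither strain nor sex, nor the kind of Mrs2 allele.

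Conjugation joins a water-soluble group to a drug, hormone, bile acid or toxic metabolite, so that the product can leave in bile or urine. GSTs use glutathione and also reduce peroxides, UGTs in the endoplasmic reticulum use UDP-glucuronic acid or another UDP-sugar, and cytosolic SULTs use the sulfate donor PAPS. Hepatocytes are the main site of all 3 reactions. Transcription factors known to act on these genes include NRF2, which answers electrophiles and oxidants, the xenobiotic receptors CAR, PXR and AhR, and the hepatocyte factor HNF4A.

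Expression is given as FPKM, fragments scaled by gene length, library size and a further factor per library. The authors computed it, and it allows levels of different genes to be set side by side. The size used, divided by the library's reads, averaged 1.02 in WT Western diet liver and 0.781 to 0.816 in the other liver groups. In iWAT libraries that ratio was 1.24 to 1.60. A higher ratio gives a lower FPKM for the same number of reads. Among the liver groups the factor thus lowered FPKM most in WT Western diet liver. Each liver library held 14.7 to 19.5 M reads and each iWAT library 15.4 to 20.4 M. Differences are log2 fold changes of FPKM + 1 with their standard error (SE), tested with limma over 14019 genes in liver and 14685 in iWAT that had a mean of at least 0.5 FPKM over the 12 libraries of the tissue. A gene was called at an adjusted p under 0.05 (Benjamini-Hochberg). Percentages of all genes that rose or fell come from this limma fit, and none are given for other tools or scalings. Marker levels matched the tissue labels: 8 hepatocyte markers summed to 25139 FPKM or more in each liver library, and 8 adipocyte markers summed to 8599 FPKM or more in each iWAT library. Pancreatic acinar markers summed to 1604 FPKM in KO chow liver 1 and 1308 FPKM in WT Western diet liver 2, and to no more than 1.90 FPKM in the other liver libraries.

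Mrs2 itself was lower in all 3 KO than in all 3 WT libraries in 3 of the 4 settings, and the exception was liver on Western diet. There the livers labelled KO had 4.10, 5.21 and 4.21 FPKM and those labelled WT had 5.10, 4.10 and 5.11 FPKM, so the groups overlapped. In chow liver it had 3.90, 4.47 and 4.16 FPKM in KO and 6.26, 5.87 and 6.50 FPKM in WT. In iWAT on Western diet it had 1.95, 1.68 and 1.60 FPKM in KO and 5.01, 2.74 and 4.72 FPKM in WT, and on chow 2.05, 1.74 and 2.25 FPKM in KO and 4.48, 4.67 and 3.87 FPKM in WT. The Western diet livers are therefore called by their labels, and every difference between them is a difference between livers so labelled. A gene-level value includes reads from parts of Mrs2 that a deletion may leave in place.

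Most of the conjugation enzyme RNA was in liver. In 32 of the 64 genes all 12 liver libraries lay above all 12 iWAT libraries, all of them among the 46 members tested in either tissue, and 17.8% of the 16408 genes tested in either tissue showed that order. These were 11 GST, 15 UGT and 6 SULT genes. The reverse order held for 1 of those 46 members, against 16.5% of genes, and for 1 member below the filter; the remaining 30 of the 64 overlapped. The 2 were Gsto2, an omega-class GST, with a median of 1.25 FPKM in iWAT and 0.0975 FPKM in liver, and Sult2b1, a cholesterol sulfotransferase, with a median of 0.301 FPKM in iWAT and at most 0.0783 FPKM in any liver; both were named after their values were seen. A mean of 10 FPKM or more was reached by 34 members in liver (17 GST, 13 UGT, 4 SULT) and by 13 in iWAT (11 GST, no UGT, 2 SULT). No test was made between the tissues, since the labels do not say whether they came from the same mice.

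A few genes made up most of each family's RNA. Among the GSTs of liver, Gstm1, the main mu-class enzyme, averaged 884 ± 190 FPKM (SD over 12 libraries), Gstp1 of the pi class 858 ± 338 FPKM, and Gsta3, an alpha-class enzyme that detoxifies aflatoxin epoxide in mice, 363 ± 125 FPKM. Together these 3 held 71.6% of the GST sum. Among the UGTs, Ugt2b5, Ugt2b36 and Ugt2b1, of the subfamily that glucuronidates steroids and bile acids, averaged 378 ± 129, 319 ± 70.2 and 212 ± 79.6 FPKM and held 57.4% of their family's sum. Among the SULTs, Sult2a8, a bile acid sulfotransferase of mouse liver, averaged 239 ± 132 FPKM, Sult1a1, which sulfates phenols, 219 ± 51.8 FPKM, and Sult1d1, which sulfates catecholamines in mice, 67.5 ± 20.1 FPKM. Those 3 held 95.9% of the SULT sum, 43.6% of it from Sult2a8.

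Among the 34 members with a mean of 10 FPKM or more in liver, the spread over the 12 livers differed widely; the 3 with the narrowest and the 3 with the widest are named here after their values were seen. The highest of the 12 livers had 1.94 times the level of the lowest for Ugt2b35 (61.0 to 118 FPKM), 1.96 times for Gstk1 (53.3 to 105 FPKM) and 1.98 times for Gstz1 (96.3 to 191 FPKM). The ratio was 38.3 for Ugt1a5 (0.926 to 35.4 FPKM), 23.6 for Sult2a8 (16.5 to 390.4 FPKM) and 23.4 for Gstm3 (18.7 to 437 FPKM). Ugt2b35 and Ugt1a5 thus stand at opposite ends, although both are UGTs.

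**Figure D1:**
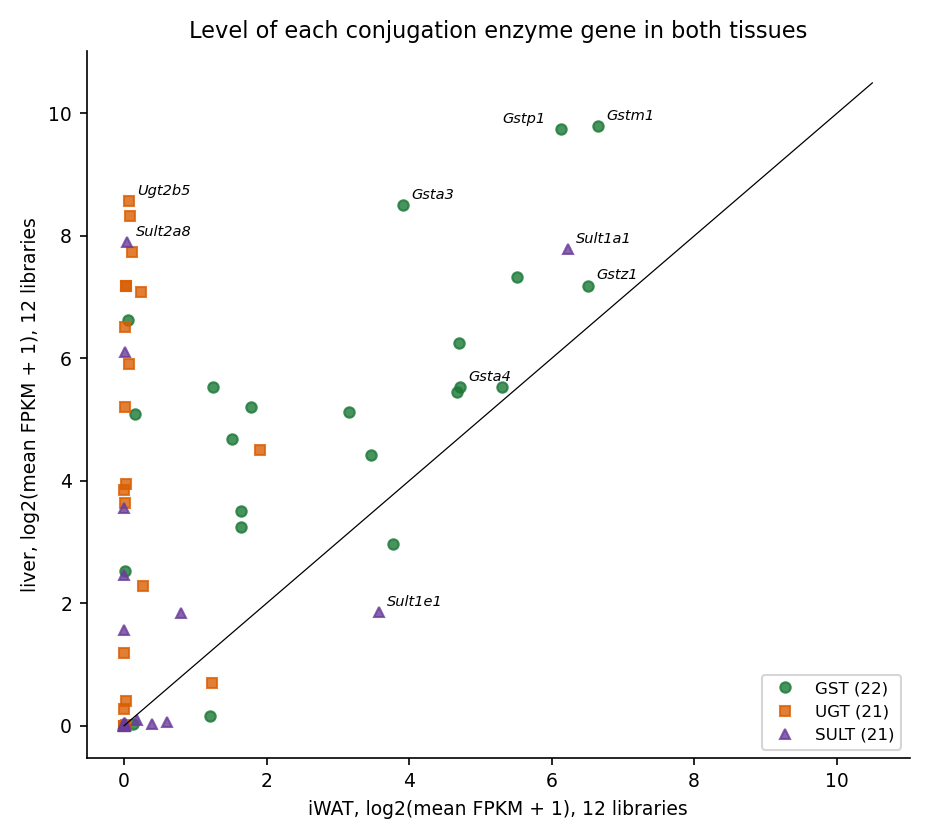
Each point is 1 of the 64 genes, with its mean over 12 iWAT libraries on the x axis and over 12 liver libraries on the y axis, both as log2(mean FPKM + 1), and the line marks equal levels. UGT genes (squares) lie near 0 in iWAT, with none at 10 FPKM or more, while Gstm1 and Gstp1 are high in both tissues.

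In iWAT the GST family was led by Gstm1 at 99.8 ± 24.01 FPKM, Gstz1, the maleylacetoacetate isomerase of tyrosine breakdown, at 89.8 ± 18.1 FPKM, and Gstp1 at 68.9 ± 6.90 FPKM. Of the SULTs, Sult1a1 averaged 73.7 ± 27.2 FPKM and Sult1e1, the oestrogen sulfotransferase, 10.9 ± 5.02 FPKM, so Sult1a1 held 85.3% of the family's sum; Sult5a1 followed with 0.745 ± 0.284 FPKM. The highest UGTs were Ugt1a6b at 2.73 ± 1.08 FPKM, Ugt1a7c at 1.34 ± 0.517 FPKM and Ugt1a6a at 0.199 ± 0.101 FPKM. Sult2a8 had 0 to 0.104 FPKM there, from 30 reads over 12 libraries, against 123371 reads over the 12 livers. No read fell on 5 members in any of the 24 libraries: Sult2a4, Sult2a5, Sult2a6, Ugt2a1 and Ugt2a2, listed here after their values were seen. Ugt2a1 and Ugt2a2 share most of their sequence with each other and with the gene model Gm43638, so their 0 does not show that they are not expressed. The filter on low values was passed by 44 members in liver (20 GST, 16 UGT, 8 SULT) and 24 in iWAT (18 GST, 2 UGT, 4 SULT), with 22 in both and 18 in neither.

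Some members share sequence with another gene, so reads can be assigned to the wrong copy. Of windows of 150 bases in the annotated transcripts, 42 members shared none with another gene, among them Sult2a8, Ugt2b1, Sult1e1, Gsta3 and Gsta4. The 9 Ugt1a genes use common last exons and shared 49.1% to 65.4% of their windows, which makes each Ugt1a value uncertain. The highest shares were 92.8% for Ugt2a1 and 93.3% for Ugt2a2. Gsta1 shared 68.4%, mostly with the gene model Gm3776 and with Gsta2, while Gstp1 shared 17.6%, mainly with Gstp2, and Gstt3 9.56%. For 14 members, the 9 Ugt1a genes and Gstm5, Gstz1, Sult1a1, Sult2b1 and Sult6b1, an exon overlapped a gene on the opposite strand, and whether the libraries kept strand is not stated in the labels used here.

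On Western diet, most of the conjugation enzymes that passed with limma were higher in livers labelled KO than in livers labelled WT. Most of the 44 members tested did not pass with limma. With that test 15 rose and 3 fell, while 10.6% of all genes tested rose and 10.4% fell. The median log2 difference was 0.54 over the members and 0.068 over all genes tested. Among the GSTs 7 rose and 2 fell, among the UGTs 4 rose and none fell, and among the SULTs 4 rose and 1 fell. In 23 members all 3 livers labelled KO lay above all 3 labelled WT, and in 6 all lay below, against 25.4% and 17.5% of all genes. DESeq2 called 23 of the 44 members, of which 19 rose and 4 fell. After quantile normalization 8 rose and 5 fell with limma, which is 61.5% higher calls in place of 83.3%. For these runs the share of all genes called is not given here. The calls numbered 8 without WT Western diet liver 1 and 11 without KO Western diet liver 1. Without WT Western diet liver 2, which held acinar RNA, they numbered 18.

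Sult2a8 differed most among the genes that rose. It had 347, 317 and 314 FPKM in livers labelled KO and 16.5, 83.0 and 42.3 FPKM in livers labelled WT. The groups lay far apart, and the lowest liver labelled KO had more than 3 times the RNA of the highest labelled WT. The log2 difference was 3.03 ± 0.48 (SE, limma adjusted p = 0.00338), and the call held in every alternative run. On chow, where KO livers had 261, 390.4 and 337 FPKM and WT livers 172, 208 and 373 FPKM, the groups overlapped and the difference was 0.45. Among the livers labelled WT, Western diet livers lay below all 3 chow livers, with a log2 difference of -2.58 ± 0.48 (limma adjusted p = 0.00610).

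Among the other SULTs, Sult1e1, which inactivates oestrogens, ran the opposite way: it had 2.30, 0.769 and 1.17 FPKM in livers labelled KO and 11.3, 9.58 and 4.03 FPKM in livers labelled WT. All livers labelled WT were higher, and the log2 difference was -1.90 ± 0.36 (limma adjusted p = 0.00655). On chow it was close to absent in liver, at 0.192 to 0.418 FPKM in KO and 0 to 0.988 FPKM in WT. Sult1d1 had 94.5, 102 and 70.8 FPKM in livers labelled KO against 48.5, 53.3 and 39.6 FPKM in those labelled WT, without overlap (log2 difference 0.90 ± 0.23, limma adjusted p = 0.0228). Sult2a7, of the hydroxysteroid subfamily, and Sult1b1, which sulfates thyroid hormones, also rose, by 1.02 ± 0.26 and 0.58 ± 0.18 on the log2 scale (limma adjusted p = 0.0191 and 0.0439). The calls of Sult1d1 and Sult2a7 were each lost without WT Western diet liver 1 or 3 or KO Western diet liver 1 or 2, and that of Sult1d1 also with quantile normalization. Sult1a1, as abundant as Sult2a8, had 154, 232 and 206 FPKM in livers labelled KO and 252, 144 and 140.2 FPKM in livers labelled WT, which overlapped.

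**Figure D2:**
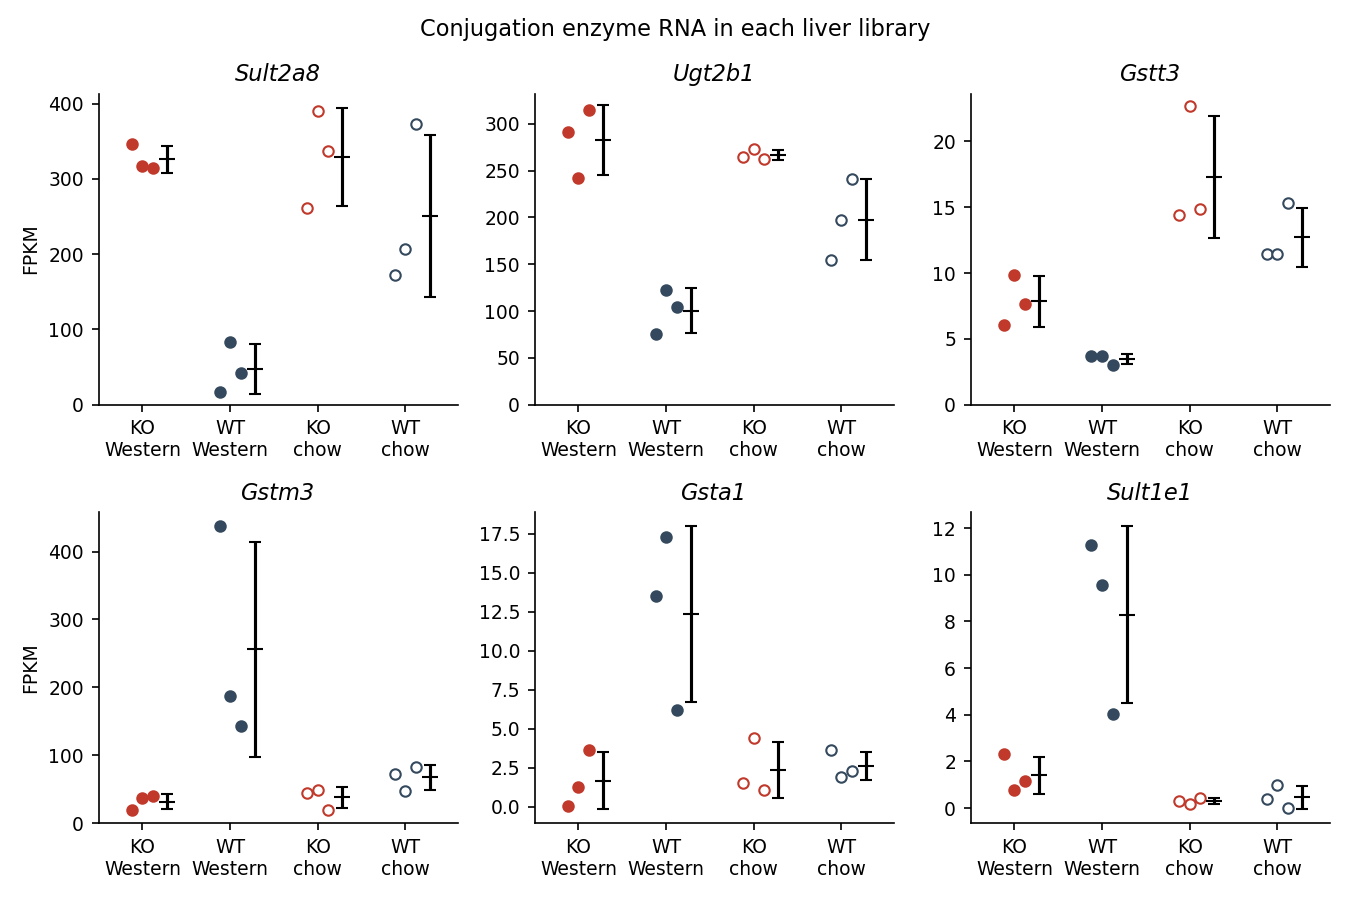
FPKM of 6 genes in each of the 12 livers, by group on the x axis (KO left of WT on each diet); points are libraries, and the black bar beside them is the mean ± SD of 3. Sult2a8, Ugt2b1 and Gstt3 are lowest in livers labelled WT on Western diet, where Gstm3, Gsta1 and Sult1e1 are highest.

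Among the UGTs, Ugt2b1 had 292, 242 and 315 FPKM in livers labelled KO and 75.4, 122 and 104 FPKM in livers labelled WT. The groups did not overlap, the log2 difference was 1.503 ± 0.199 (limma adjusted p = 0.00174), and the call held in every alternative run. Ugt2a3, whose human counterpart glucuronidates bile acids, had 152, 134 and 133 FPKM in livers labelled KO against 59.6, 80.7 and 77.2 FPKM in livers labelled WT (0.94 ± 0.22, limma adjusted p = 0.0154). The UGT3 enzymes, which in humans use other UDP-sugars than UDP-glucuronic acid, rose as a pair. Ugt3a1 had 47.3, 36.9 and 53.0 FPKM in livers labelled KO against 11.5, 29.3 and 23.9 FPKM in livers labelled WT (1.13 ± 0.30, limma adjusted p = 0.0260). Ugt3a2 had 158, 151 and 153 FPKM in livers labelled KO against 71.3, 111 and 100.2 FPKM in livers labelled WT (0.73 ± 0.16, limma adjusted p = 0.0107). All livers labelled KO were above all labelled WT in these 3 genes. The Ugt2a3 call was lost without WT or KO Western diet liver 1, and the Ugt3a1 call without WT Western diet liver 1 or KO Western diet liver 1 or 3 and with the replicate block. Quantile normalization ended the calls of Ugt2a3 and Ugt3a2. The most abundant UGTs gave the same sign without passing the test: Ugt2b5 differed by 0.68 ± 0.26 and Ugt2b36 by 0.47 ± 0.19 (limma adjusted p = 0.0905 and 0.110). Of the 16 UGTs tested, 14 had a difference above 0, among them all 8 UGT2 genes (0.29 to 1.503), although Ugt1a6b and Ugt2b35 turned below 0 with quantile normalization.

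The GSTs moved in both directions. Of the mu and alpha classes, 8 of 11 members tested had a difference below 0, while the 3 theta-class genes were all above 0. Gstm3, a mu-class enzyme, had 18.7, 37.3 and 39.5 FPKM in livers labelled KO and 437, 187 and 144 FPKM in livers labelled WT. The spread among the livers labelled WT was wide, yet the lowest of them was far above the highest labelled KO (log2 difference -2.87 ± 0.47, limma adjusted p = 0.00394). Gsta1, an alpha-class enzyme that reduces lipid peroxides, had 0.0830, 1.31 and 3.65 FPKM in livers labelled KO and 13.5, 17.3 and 6.21 FPKM in livers labelled WT, again without overlap (-2.46 ± 0.54, limma adjusted p = 0.0122). That call was lost with the replicate block and without WT Western diet liver 1, and most of the Gsta1 transcript is shared with other genes. Gsta2 had 8.96, 16.6 and 15.3 FPKM in livers labelled KO against 34.6, 37.4 and 23.95 FPKM in livers labelled WT, and missed the threshold (limma adjusted p = 0.0546); it is named here after its values were seen.

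The GSTs that rose belonged to other classes, apart from Gsta3. Gstt3, of the theta class, had 6.03, 9.87 and 7.64 FPKM in livers labelled KO and 3.71, 3.68 and 3.03 FPKM in livers labelled WT (0.97 ± 0.20, limma adjusted p = 0.00916). Gstk1, found in mitochondria and peroxisomes, had 86.5, 86.7 and 105 FPKM in livers labelled KO and 57.7, 64.0 and 53.3 FPKM in livers labelled WT (0.65 ± 0.11, limma adjusted p = 0.00424). Gsta3 had 298, 408 and 343 FPKM in livers labelled KO against 199.8, 239.7 and 164 FPKM in livers labelled WT (0.80 ± 0.20, limma adjusted p = 0.0180). In each of the 3 the groups did not overlap, but the Gsta3 call was lost with quantile normalization and without WT Western diet liver 1 or 3 or KO Western diet liver 2 or 3. Gsto1, which reduces dehydroascorbate, Gstz1 and Gstt1, which acts on halogenated compounds, rose by 0.68, 0.61 and 0.54 on the log2 scale (limma adjusted p = 0.0135, 0.0112 and 0.0495). Gstp1 rose by 0.91 ± 0.29 with limma adjusted p = 0.04999, just under the threshold, at 1147, 717 and 703 FPKM in livers labelled KO against 335, 452 and 578 FPKM in livers labelled WT. The Gstp1 call was lost in 15 alternatives and those of Gstt1 and Sult1b1 in 13 each, edgeR among them. The calls of Gsto1 and Gstz1 were lost with quantile normalization, and that of Gsto1 also without WT Western diet liver 1. Gstm1, the most abundant, had 596, 871 and 698 FPKM in livers labelled KO and 1164, 935 and 872 FPKM in livers labelled WT. The highest liver labelled KO was just below the lowest labelled WT, and the test was not passed (-0.46 ± 0.23, limma adjusted p = 0.180). In the authors' deposited table, Gstm3 had a log2 fold change of -3.05, Sult2a8 2.76 and Ugt2b1 1.46 between livers labelled KO and WT. Gsta2, Ugt2b5, Ugt2b36 and Gstm1, which missed the limma threshold, had DESeq2 adjusted p of 4.55e-05, 0.0157, 0.0316 and 0.0393 there.

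**Figure D3:**
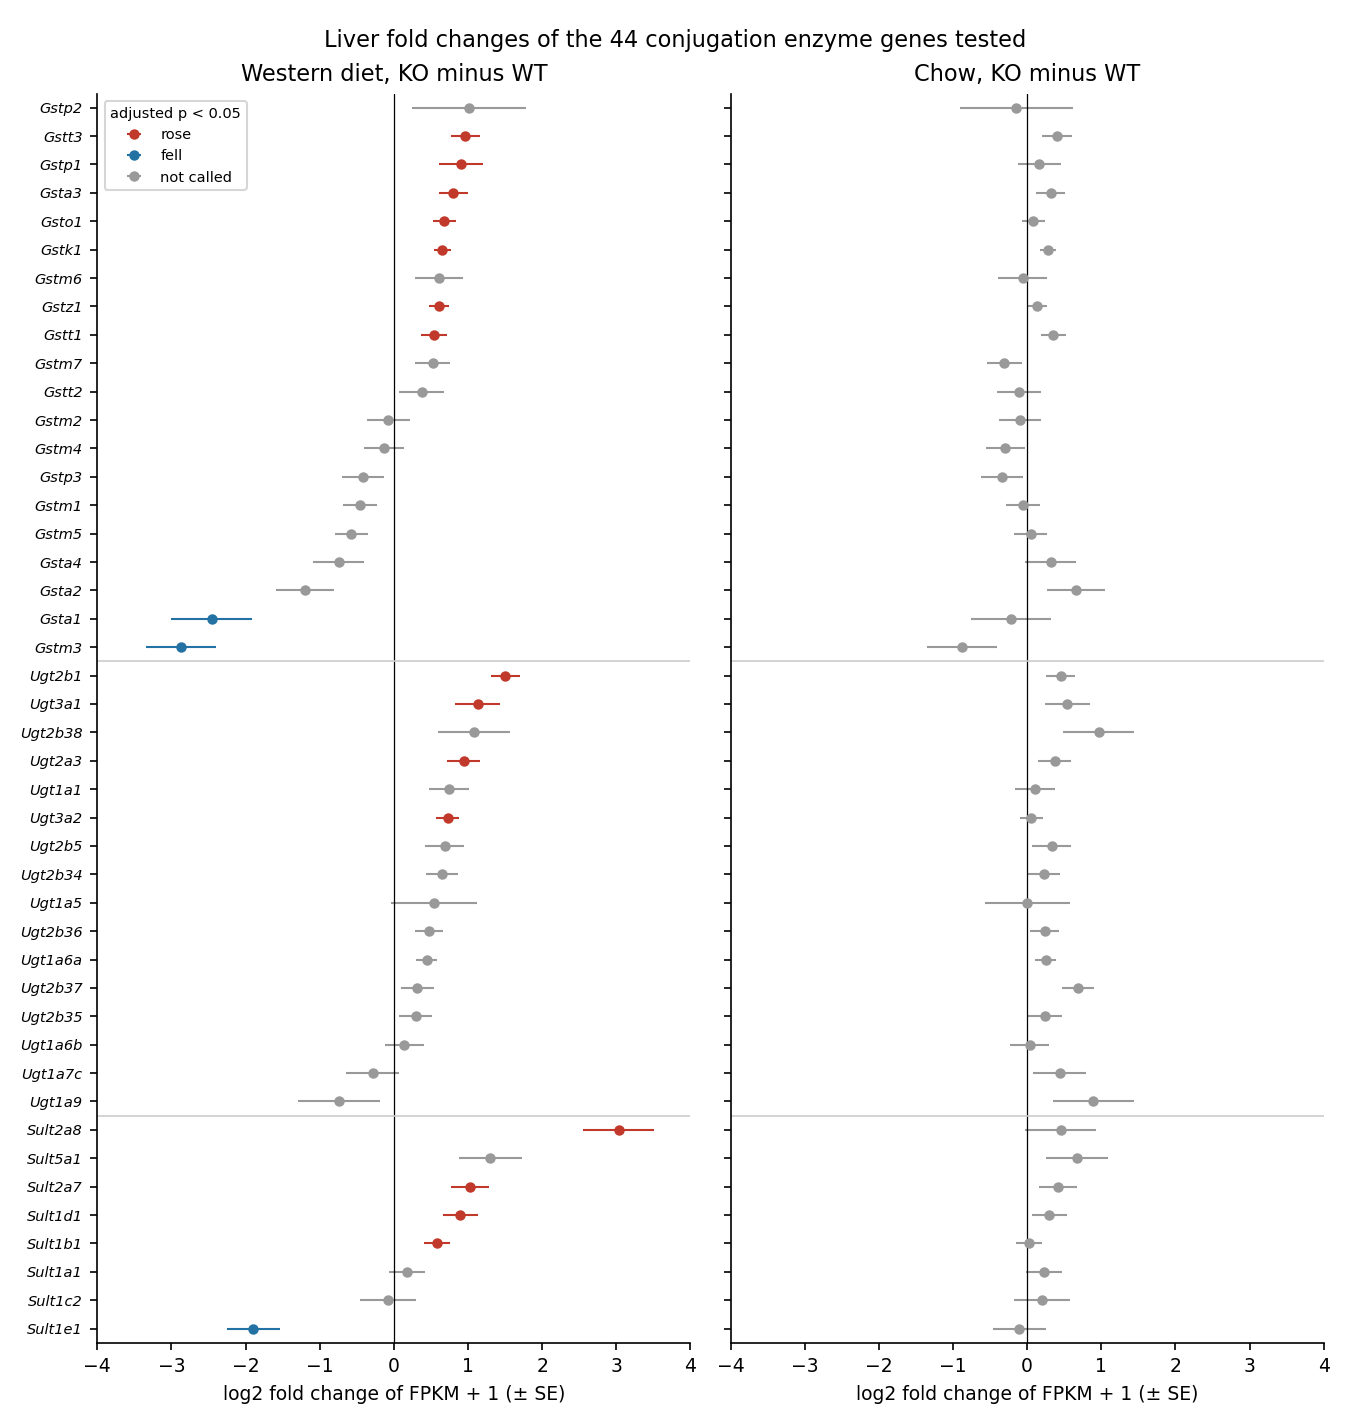
Log2 fold change of FPKM + 1 with its SE for the 44 members tested, KO minus WT in liver, on Western diet (left) and chow (right), ordered by family and by the Western diet value. On Western diet 15 genes rose (red) and 3 fell (blue), and on chow no gene passed the threshold.

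Promoter sequence is shown for members that moved, since they did not move in 1 direction. RefSeq (GRCm38.p6, mm10) gave 67 promoters for 56 of the 64 members, and the 250 bases before each start were searched on both strands. The antioxidant response element, written TGACNNNGC, was in 3 of the 67 (4.48%), against 10.2% of all 32851 promoters of that length, and those were Gsta3, Gstm5 and Gstm7. The STAT5 motif TTCNNNGAA was in 4 (5.97%, against 7.02%), among them Gsta1, and TATAAA in 13 (19.4%, against 12.4%), among them Sult2a8. The HNF4A motif CAAAGTCCA was in none, against 0.384% of all promoters. At that rate, none among 67 shows nothing about the members. The first sequence lies on the minus strand before the inner of 2 starts of Sult2a8 (chr7:14438552-14438801), while the second, at Gsta3 (chr1:21240335-21240584), and the third, at Gsta1 (chr9:78230419-78230668), lie on the plus strand. Capitals mark TATAAA in Sult2a8, the antioxidant response element in Gsta3 and the STAT5 motif in Gsta1, which begin 29, 121 and 162 bases before the start.
Sult2a8: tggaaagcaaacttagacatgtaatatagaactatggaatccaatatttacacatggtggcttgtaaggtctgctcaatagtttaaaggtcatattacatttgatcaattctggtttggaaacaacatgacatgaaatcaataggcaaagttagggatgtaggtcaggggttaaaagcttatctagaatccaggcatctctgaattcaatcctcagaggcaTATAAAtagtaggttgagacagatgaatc
Gsta3: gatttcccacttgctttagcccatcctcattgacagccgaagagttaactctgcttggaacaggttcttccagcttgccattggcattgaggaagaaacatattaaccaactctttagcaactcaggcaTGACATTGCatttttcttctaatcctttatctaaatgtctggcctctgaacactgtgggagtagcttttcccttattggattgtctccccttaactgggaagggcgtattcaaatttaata
Gsta1: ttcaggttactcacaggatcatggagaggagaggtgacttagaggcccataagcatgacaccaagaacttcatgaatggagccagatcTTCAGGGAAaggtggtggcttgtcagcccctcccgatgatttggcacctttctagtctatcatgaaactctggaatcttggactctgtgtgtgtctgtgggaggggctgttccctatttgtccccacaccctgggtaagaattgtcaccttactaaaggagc
A match describes the letters only. The lack of a match in these 250 bases does not show that the motif is absent further from the start. Of these 3 genes, Sult2a8 and Gsta3 were higher and Gsta1 was lower in Western diet livers labelled KO.

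On chow, no member passed the test between KO and WT liver, and neither did any other gene (0.0% of genes in each direction with limma). At an unadjusted p under 0.05 there were 3 of 44 members, beside 4.81% of all genes, and edgeR and DESeq2 called 0. All 16 UGTs and 7 of 8 SULTs had a difference above 0, as did 10 of 20 GSTs. The sign of Ugt1a5, Ugt1a6b, Ugt3a2, Sult1b1 and Gstp1 changed under at least 1 other scaling or tool, and these small differences give no direction. The median over the members was 0.22 and over all genes 0.0050, while quantile normalization gave 0.14, with 28 in place of 33 of 44 above 0. All 3 KO livers lay above all 3 WT livers for 6 members, against 4.59% of all genes, and below for none, against 4.34%. Ugt2b1 was at 264, 273 and 263 FPKM in KO and 154, 197 and 241 FPKM in WT chow liver, a difference of 0.45 ± 0.20 (limma adjusted p = 0.863).

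In livers labelled WT, Western diet went with less RNA of most of the conjugation enzymes that passed the test. This comparison uses the same WT Western diet libraries as the comparison of genotypes on that diet, so the values are given side by side and are not independent. Of the 44 members 3 rose and 13 fell on Western diet against chow, with 9.72% of all genes rising and 9.49% falling. The median over the members was -0.46, and over all genes -0.055. All Western diet livers lay above all chow livers for 4 members and below for 16, against 15.2% and 19.2% of all genes. With quantile normalization 5 rose and 10 fell, that is 33.3% higher calls in place of 18.8%, and the share of all genes is not given for it. The calls numbered 9 without WT chow liver 3, 9 without WT Western diet liver 1 and 16 without WT Western diet liver 2. Skeletal muscle markers summed to 138 FPKM in WT chow liver 3, against 0.313 to 0.563 FPKM in the other WT chow livers and 0.622 to 3.20 FPKM in WT Western diet livers, and their part in these counts was not tested.

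The 3 that rose were Sult1e1 (2.63 ± 0.36, limma adjusted p = 0.00163), Gsta1 (1.81 ± 0.54, 0.0423) and Gstm3 (1.77 ± 0.47, 0.0261). The Gsta1 call was lost in 11 alternatives, edgeR among them, and the Gstm3 call with the replicate block and without WT chow liver 2, WT chow liver 3 or WT Western diet liver 1. Gstm3 had 437, 187 and 144 FPKM in WT Western diet livers and 71.9, 47.7 and 83.3 FPKM in WT chow livers. Gstt3 fell without overlap, to 3.71, 3.68 and 3.03 FPKM in WT Western diet livers, against 11.4, 11.5 and 15.3 FPKM in WT chow livers (-1.61 ± 0.20, limma adjusted p = 0.00112). Ugt1a5, of the UGT1A subfamily, whose value is uncertain because of its shared exons, had 5.31, 5.51 and 0.926 FPKM in WT Western diet livers and 21.4, 18.2 and 27.7 FPKM in WT chow livers (-2.43 ± 0.58, limma adjusted p = 0.0170). The other UGTs that fell were Ugt2a3, Ugt2b1, Ugt2b5 and Ugt3a2, by 1.10, 0.97, 0.85 and 0.61 on the log2 scale. The Ugt2b5 call was lost in 13 alternatives, with a value of -0.42 after quantile normalization, and the Ugt3a2 call in 4. Gstp1, Gstt2, Gsta3, Gsto1 and Gstz1 fell by 1.14, 0.998, 0.994, 0.87 and 0.46. The Gstz1 call was lost in 12 alternatives, edgeR among them, with a value of -0.13 after quantile normalization, the Gstt2 call in 10, and the Gstp1 and Ugt1a5 calls in 3 each. The SULTs that fell were Sult2a8, described above, and Sult1b1, by 0.87.

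In livers labelled KO, the same diets gave no call among the members. With limma 9 of 44 members had an unadjusted p under 0.05, beside 15.4% of all genes, while 0.15% of all genes rose and 0.271% fell. EdgeR called 1 member (Gstt3) and DESeq2 called 5 (Gsta2, Gsta4, Gstt3, Ugt1a5 and Ugt1a9). The share of all genes called by those tools is not given here. Sult2a8 had 347, 317 and 314 FPKM in Western diet livers and 261, 390.4 and 337 FPKM in chow livers labelled KO, a difference of 0.0024 ± 0.48. Ugt2b1 had 292, 242 and 315 FPKM in Western diet livers and 264, 273 and 263 FPKM in chow livers labelled KO. These groups overlapped, as they did not in livers labelled WT. Gstt3 was lower on Western diet here too, with 6.03, 9.87 and 7.64 FPKM in Western diet livers and 14.4, 22.7 and 14.9 FPKM in chow livers (limma adjusted p = 0.0676). All Western diet livers lay below all chow livers for 9 members and above for 2, against 12.5% and 14.2% of all genes.

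Whether the diet difference itself depended on the genotype label was tested as an interaction, and no member passed with limma, where 0.128% of all genes were called above 0 and 0.421% below. At an unadjusted p under 0.05 with limma there were 11 of 44 members, beside 16.4% of all genes. EdgeR called 0 and DESeq2 called 4, which were Gsta2, Gstm3, Sult2a8 and Ugt2b1. The share of all genes that DESeq2 called is not given here, so the 4 cannot be set against it. Sult2a8 had an interaction of 2.58 ± 0.68 (limma adjusted p = 0.122) and Ugt2b1 of 1.05 ± 0.28 (limma adjusted p = 0.130). Sult2a8 passed with limma without WT Western diet liver 2, which held acinar RNA and the highest Sult2a8 level of its group (83.0 FPKM). It did not pass without KO chow liver 1, the other liver with acinar RNA, and the part of that RNA was not tested. The median over the members was 0.36, and over all genes 0.055.

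Summed over each family, the UGT and SULT levels of Western diet livers separated by label and the GST level did not. The UGT sum was 1717, 1621 and 1697 FPKM in livers labelled KO and 781, 1222 and 1042 FPKM in those labelled WT. The SULT sum was 621, 669.8 and 615 FPKM in livers labelled KO against 340.0, 307 and 239.6 FPKM in those labelled WT. Of that sum, Sult2a8 alone held 314 to 347 FPKM in livers labelled KO and 16.5 to 83.0 FPKM in those labelled WT. Sult1a1, the other large part, overlapped between the labels, so the SULT sum does not show a shift of the whole family. The GST sum was 2762, 2772 and 2567 FPKM in livers labelled KO and 2819.8, 2453 and 2255 FPKM in those labelled WT. Those overlapped, with Gstm3 and Gstm1 lower and Gstp1 and Gsta3 higher in livers labelled KO. All these sums carry the authors' factor per library, and sums under another scaling were not computed.

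Markers of cell types moved with these differences, and in bulk tissue fewer cells of a type and less RNA per cell cannot be told apart. Between Western diet livers labelled KO and WT, 6 of 8 hepatocyte markers rose, with sums of 34545 to 42171 FPKM in livers labelled KO and 25139 to 32311 FPKM in livers labelled WT. Macrophage markers fell in 7 of 10, with sums of 162 to 203 FPKM in livers labelled KO and 431 to 1068 FPKM in livers labelled WT. Cholangiocyte markers fell in all 4 tested of 6. Their sums were 17.9 to 31.8 FPKM in livers labelled KO and 147 to 251 FPKM in livers labelled WT. The same list summed to 4.81 to 20.8 FPKM in WT Western diet iWAT, so it does not mark cholangiocytes alone. Lymphocyte markers fell in 4 of 5 tested of 8. Stellate cell and fibroblast markers fell in 8 of 8, with sums of 44.4 to 48.2 FPKM in livers labelled KO and 132 to 211 FPKM in livers labelled WT. In WT livers the diet comparison moved hepatocyte markers down in 7 of 8. Macrophage, cholangiocyte and stellate markers moved up in 8 of 10, 3 of 4 tested and 7 of 8, and no lymphocyte marker passed. No marker of the macrophage list was at 0 in any liver, and Cftr of the cholangiocyte list was at 0 in 5 livers. The part of these cells in the differences of the conjugation enzymes was not tested.

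**Figure D4:**
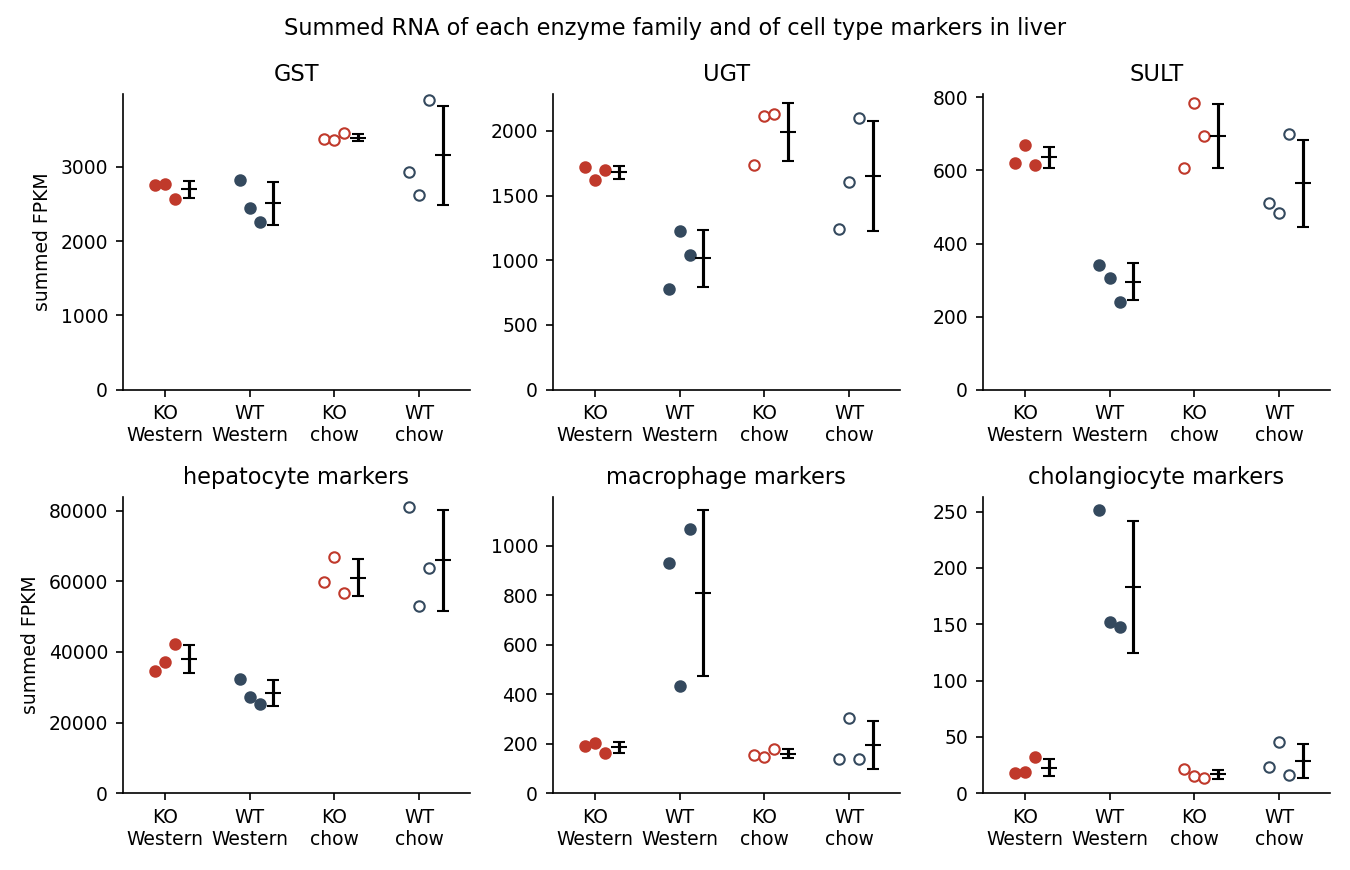
Summed FPKM per liver library of the 22 GST, 21 UGT and 21 SULT genes (top) and of hepatocyte, macrophage and cholangiocyte markers (bottom), with the mean ± SD of 3 beside each group. UGT and SULT sums are lowest, and macrophage and cholangiocyte sums highest, in livers labelled WT on Western diet.

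The genes that supply the donor molecules changed in both directions, in a comparison where 10.6% of all genes rose and 10.4% fell. Between Western diet livers labelled KO and WT, 2 of 5 tested genes of PAPS supply and desulfation rose and none fell: Papss2, which makes PAPS, by 0.68 (limma adjusted p = 0.0323), and Bpnt1, which clears the by-product of sulfation, by 0.44 (0.0170). Of 8 tested glutathione supply genes 2 rose, Mat1a and Cth of the methionine to cysteine route by 0.77 and 0.74 (limma adjusted p = 0.00599 and 0.0262), and 1 fell, the glutathione synthetase Gss, by 0.52 (0.0409). Of 5 genes listed under UDP-glucuronate supply 1 rose, the carrier Slc35d1, by 0.53 (limma adjusted p = 0.0310). The 1 that fell was Gusb, by 0.75 (0.0204), a glucuronidase that splits glucuronides and supplies no donor. The list medians were 0.26, 0.48 and 0.049, beside 0.068 over all genes. Among 14 tested other conjugating enzymes 3 rose: the bile acid enzymes Slc27a5 and Baat by 0.91 and 0.52, and the glycine acyltransferase Glyat by 0.85 (limma adjusted p = 0.00413, 0.0289 and 0.00710). The microsomal Mgst3 fell by 1.23 (0.0154). Of 5 genes of conjugate export, Abcc6 rose by 0.63 (0.0496) and Abcc4 fell by 0.79 (0.00566).

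Of 11 tested targets of NRF2, none rose and 6 fell in Western diet livers labelled KO against those labelled WT, where 10.6% of all genes rose and 10.4% fell. The list median was -0.79. Cbr3, a carbonyl reductase, had 0.506, 0.703 and 0.407 FPKM in livers labelled KO and 11.8, 7.31 and 3.94 FPKM in livers labelled WT, without overlap (-2.39, limma adjusted p = 0.00113). Srxn1, which repairs peroxiredoxins, Abcc4 and G6pdx, the first enzyme of the pentose phosphate pathway, fell by 0.88, 0.79 and 0.96 (limma adjusted p = 0.00394, 0.00566 and 0.0133). Nfe2l2, the gene of NRF2, fell by 0.74 (0.0202), while Rxra, the partner of CAR and PXR, rose by 0.84 (limma adjusted p = 0.00403). Of 9 tested targets of CAR, PXR and AhR, Cyp2c29 and Cyp1a2 rose by 2.15 and 1.62 (limma adjusted p = 0.00247 and 0.0302) and none fell, with a list median of -0.24.

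The same lists were read between Western diet and chow in livers labelled WT, a comparison that shares the WT Western diet libraries and in which 9.72% of all genes rose and 9.49% fell. Of 11 NRF2 targets 4 rose and none fell: Srxn1 by 0.9999, Cbr3 by 1.88, Hmox1, the haem oxygenase, by 1.23 and G6pdx by 0.85 (limma adjusted p = 0.00201, 0.00229, 0.0215 and 0.0223), with a list median of 0.44. Nfe2l2 rose by 0.93 (0.00842), and the bile acid receptor Nr1h4 and Rxra fell by 0.62 and 0.48 (0.0224 and 0.0372). Papss2 fell by 1.13 (0.00429), Cth by 0.95 (0.00997), Mat1a by 0.62 (0.0147), Slc27a5 by 0.89 (0.00441) and Glyat by 0.66 (0.0200). Slc35d1 fell by 0.65 (0.0145) and Gusb rose by 0.64 (0.0391). Cyp2c29 fell by 1.70 and Cyp2b10 by 1.54 (0.00586 and 0.0268), and no gene of conjugate export passed. No listed gene passed in liver between genotypes on chow or between diets in livers labelled KO. In the interaction 1 of the 11 NRF2 targets passed, which was Cbr3 (-2.30, limma adjusted p = 0.0394), and no gene of the other 7 lists did.

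In iWAT, 1 of 24 members passed in each of 2 comparisons, and it was Gsta4 both times. Gsta4, an alpha-class enzyme that conjugates hydroxynonenal, a product of lipid peroxidation, had 28.8, 27.3 and 27.5 FPKM in KO and 10.2, 16.1 and 8.62 FPKM in WT iWAT on Western diet. The groups were well apart (1.23 ± 0.22, limma adjusted p = 0.0226), where 3.2% of all genes rose and 1.05% fell. The call was lost, with a difference of at least 1.06, when WT Western diet iWAT 1 or 3 or KO Western diet iWAT 1 or 2 was left out. DESeq2 called 2 members, Gsta4 and Gstt3, and edgeR called Gsta4.

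Between WT iWAT on Western diet and on chow, which shares the WT Western diet libraries, Gsta4 fell by 1.47 ± 0.22 (limma adjusted p = 0.0154), where 1.36% of genes rose and 0.769% fell. It had 32.0, 25.9 and 43.0 FPKM in WT chow iWAT, and 29.5, 30.2 and 25.1 FPKM in KO chow iWAT. WT Western diet iWAT was thus the low group, and the other 3 overlapped. The call was lost without WT Western diet iWAT 3. Brown adipocyte markers, of which 4 of 5 rose in KO against WT on Western diet, summed to 551 to 1788 FPKM in KO and 17.3 to 138 FPKM in WT Western diet iWAT, and their part in the Gsta4 difference was not tested. Skeletal muscle markers, of which none of 6 passed the test in either comparison, summed to 933, 9.31 and 20.1 FPKM in KO and 3059, 225 and 113 FPKM in WT Western diet iWAT, and to 14.3 to 99.7 FPKM in WT chow iWAT. WT Western diet iWAT 1 stood highest. The Gsta4 call against KO was lost without it, and also without WT Western diet iWAT 3 or KO Western diet iWAT 1 or 2. The call against chow was kept without WT Western diet iWAT 1, and the part of muscle RNA was not tested.

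The other iWAT comparisons gave no call. Between KO and WT on chow limma called 0 members with 0 at an unadjusted p under 0.05 (5.65% of all genes), edgeR and DESeq2 called 0, and 0.0% of all genes passed in either direction. Between Western diet and chow in KO iWAT limma called 0 with 2 at an unadjusted p under 0.05 (9.47% of all genes), edgeR 0 and DESeq2 1 (Sult4a1), and 0.0% of genes passed. In the interaction limma called 0 with 1 at an unadjusted p under 0.05 (6.88% of all genes), edgeR 0 and DESeq2 1, and again 0.0% of genes passed. Sult1e1, called in liver, had 17.6, 5.89 and 16.9 FPKM in KO and 7.11, 14.2 and 5.90 FPKM in WT iWAT on Western diet, which overlapped. The summed GST level was 445 ± 39.5 FPKM in KO and 448 ± 35.0 FPKM in WT iWAT on Western diet (SD, n = 3 each). Of the listed genes, Mgst2 (0.53), Ppara (1.94) and Cyp2b10 (1.18) rose in KO against WT iWAT on Western diet (limma adjusted p = 0.0226, 0.0285 and 0.0497), and none fell. In WT iWAT on Western diet against chow, Gusb and Abcc3 rose by 0.77 and 0.97 and Mgst2 and Inmt fell by 0.68 and 1.06 (limma adjusted p = 0.0215, 0.0352, 0.0136 and 0.0288).

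**Figure D5:**
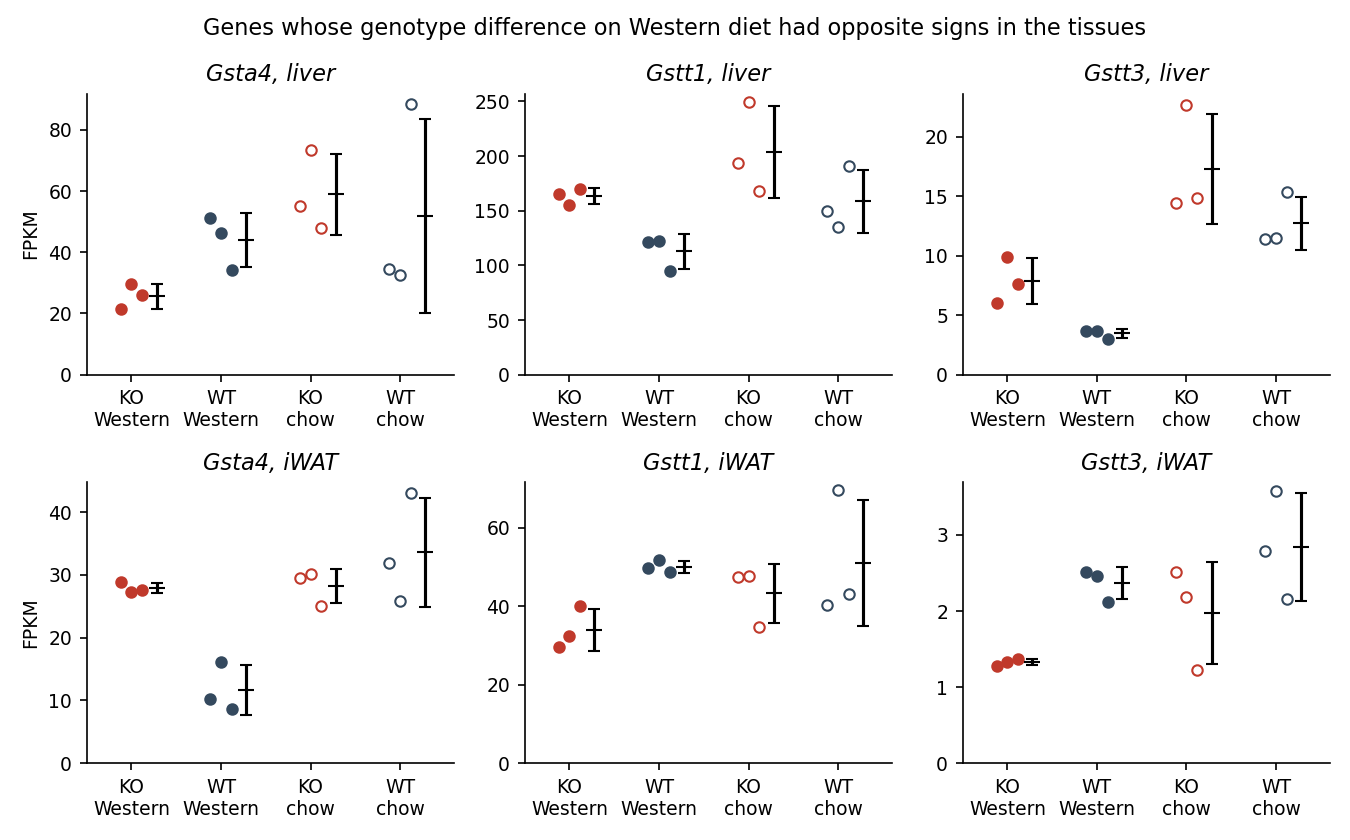
FPKM of Gsta4, Gstt1 and Gstt3 in each liver library (top) and iWAT library (bottom), by group on the x axis, with the mean ± SD of 3 beside each group. On Western diet Gsta4 is lower in livers labelled KO than in those labelled WT but higher in KO iWAT, and Gstt1 and Gstt3 are higher in livers labelled KO but lower in KO iWAT.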

How the data were processed

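RNA from liver and iWAT of KO and WT mice on Western diet or chow was captured on poly-T beads, and the labels' protocols give no strandedness. Groups were read from the genotype, diet and tissue labels, and the design text describes the 3 libraries of a group as mice. Per the submitters' processing notes, the tools were HISAT2 2.0.5 and DESeq2 1.20.0 and the build was mm10, with no roles stated. The counting program is not given in the sources used here. Main values were the authors' FPKM of 54532 genes, with the deposited gene length in bases in the same file, per the file headers. The authors' deposited comparisons of genotypes give read counts and log2 fold changes, and their p-value was made with DESeq2, per the deposited read-me. Another 32 columns of values per library were not used.

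FPKM multiplied by gene length and 1 constant per library gave whole reads within 0.01 for all 540911 values above 0 (100%), and 64434 of 64434 deposited counts compared equalled them. In liver the constant divided by the recovered reads was 0.769 to 1.07 (group mean 1.02 ± 0.0465 in WT Western diet, 0.781 to 0.816 in the other 3, SD, n = 3) and in iWAT 1.24 to 1.60, so the deposited FPKM already carry a scaling factor per library. Log2(FPKM + 1) was fitted per tissue over 4 groups with limma 3.58.1 (trend and robust) in R 4.3.3 after a filter of mean FPKM 0.5, with Benjamini-Hochberg adjustment over all genes tested. Alternatives were fits of the recovered reads with edgeR 4.0.16 and with DESeq2 1.42.0, median-of-ratios and quantile scaling, a pseudocount of 0.1, no filter, a replicate block and leaving out each library. The model fits were tested on simulated data. Tables and plots used Python 3.11.15, pandas 2.3.3, numpy 2.4.6 and matplotlib 3.10.9.

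Genes named were Sult2a8, the 3 highest members of each family per tissue, every called member, and up to 4 called genes of each supporting list with the smallest p. The members, lists and tests were chosen with earlier results of these data known. Sts of the PAPS list was not analysed here. Results for 1 regulator and 1 motif are not reported here, so the motifs given are not all those searched. Residuals of libraries with the same replicate number correlated above 0.1 in each of 3 pairs in 1 comparison, KO and WT iWAT on chow (r = 0.184, 0.127 and 0.407 across genes, with 0.258 the highest for other numbers), and the block gave 0 calls there too.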

Additional observations from a re-analysis of the deposited data

Results flagged for a closer look

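For 3 of the 22 members tested in both tissues, KO minus WT on Western diet had opposite signs in liver and iWAT. The genotype labels did not overlap in either tissue for these 3. The share of all genes with this pattern was not computed, and the difference between the tissues was not tested. In liver alone, all 3 livers labelled KO lay above all 3 labelled WT in 25.4% of all genes and below in 17.5%. Gsta4 had a log2 difference of -0.74 in liver, where livers labelled KO had 21.4, 29.5 and 26.1 FPKM and those labelled WT 51.2, 46.4 and 34.1 FPKM (limma adjusted p = 0.152), and of 1.23 in iWAT. Gstt1 had 0.54 in liver, at 165, 156 and 170.1 FPKM in livers labelled KO against 121, 122 and 94.6 FPKM in livers labelled WT. In iWAT Gstt1 had -0.55, at 29.6, 32.5 and 40.0 FPKM in KO against 49.7, 51.8 and 48.7 FPKM in WT (limma adjusted p = 0.183). Gstt3 had 0.97 in liver and -0.53 in iWAT, with 1.28, 1.33 and 1.37 FPKM in KO iWAT and 2.52, 2.46 and 2.12 FPKM in WT iWAT (limma adjusted p = 0.128). In the authors' deposited table for iWAT on Western diet, the log2 fold changes of Gsta4, Gstt3 and Gstt1 were 1.28, -0.81 and -0.53, with adjusted p of 4.87e-05, 0.00275 and 0.00927, and that of Gsta4 in liver was -0.81 with 0.00103. Beside these values, brown adipocyte markers summed to 551 to 1788 FPKM in KO and 17.3 to 138 FPKM in WT Western diet iWAT, and their part was not tested.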

How the results depend on the processing

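The count of 18 members between Western diet livers labelled KO and WT was 13 to 23 over the alternatives that kept all libraries (edgeR 16, DESeq2 23, quantile 13, replicate block 13) and 8 to 19 when 1 library was left out. Of the 18 genes, 8 kept their call without any single library and 6 in every alternative. The count of 16 between WT livers on Western diet and chow was 12 to 20 (edgeR 15, DESeq2 20, replicate block 13), and 9 to 16 with 1 library left out, with 8 genes kept in every alternative. For livers labelled KO on Western diet against chow, edgeR gave 1, DESeq2 5 and leaving out 1 library 0 to 2 (2 without WT chow liver 3, through the shared variance). For the liver interaction DESeq2 gave 4 and leaving out 1 library 0 to 1. In iWAT, KO against WT on Western diet gave 2 with DESeq2 and 0 to 1 with 1 library left out. WT Western diet against chow gave 2 with edgeR, 4 with DESeq2, 0 with the replicate block and 0 to 2 with 1 library left out. DESeq2 gave 1 for KO Western diet against chow and 1 for the interaction in iWAT. The labels do not say whether equal replicate numbers pair samples, and the cause of these changes was not tested. The log2 difference of Sult2a8 between diets in livers labelled KO changed sign around 0, at -0.0061 with median-of-ratios scaling, -0.011 with edgeR, -0.024 with DESeq2, and -0.16 to 0.13 with 1 library left out (-0.16 without KO chow liver 1, -0.043 without KO Western diet liver 1). Of the 39 named results, Sult2a8 between genotypes on chow, between diets in KO-labelled livers and in the interaction had no call to lose. Among the rest, 14 lost their call with quantile normalization, 10 with the block and 5 with edgeR. With 3 mice per group, a p that misses the threshold does not show equal levels, and low members near 0.5 FPKM rest on few reads.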
